A study of Mus musculus with 58 samples.

Results

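Kcnv2, Atp1b1, Atp1b2, Atp2b1 and Atp2b2 were followed through the day in control and diabetic mouse retinas. These 5 genes, which encode a potassium channel subunit and subunits of ion pumps, were taken by their symbols from a table of 52459 genes, and all 5 were found. RNA was sequenced from retinas of males heterozygous for Ins2Akita, a dominant mutation of an insulin gene that causes hyperglycemia, and from littermate males without hyperglycemia, whose genotype label is C57/BL/6. All mice were 4 months old, lived from birth under 12 h of light and 12 h of darkness, and were perfused with cold saline before dissection, under dim red light at night. The control group had 30 libraries, with 5, 6, 5, 5, 5 and 4 at ZT1, ZT5, ZT9, ZT13, ZT17 and ZT21 (hours since the lights came on), and the diabetic group had 28, with 5, 5, 5, 4, 4 and 5. The model carries the mutation in every cell, so a change in the retina cannot be assigned to the retina or to the rest of the body, and only males at a single age were sampled.

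Photoreceptors hold a steady inward current in darkness, which light shuts off, and ion pumps keep the ion gradients that this current draws on. Kcnv2 encodes a subunit that forms no channel alone and assembles with other voltage-gated potassium channel subunits in rods and cones, and loss of the human gene causes a retinal disease of rods and cones. Atp1b1 and Atp1b2 encode beta subunits of the sodium pump, which moves sodium out of and potassium into the cell and needs a beta subunit to reach the membrane. Atp2b1 and Atp2b2 encode plasma membrane calcium pumps, which move calcium out of the cell, and are used at photoreceptor terminals and by inner retinal neurons.

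The libraries held between 7773117 and 22147398 reads counted on genes, and the 5 genes had between 1860 and 37427 reads each in a library, so counting error was small beside the spread between libraries. Values are given as normalized counts, which are reads divided by a factor for the depth of the library. The study calls the libraries of a group biological replicates, and the p-values measure the spread between these libraries. The labelled tissue was borne out by the rod markers, all 7 of which were detected, with a summed level of 507822 to 769227 normalized counts. Lens markers summed to at most 977 in the diabetic libraries and to as much as 43469 in a control library, while pigment epithelium markers summed to 435 to 4146 in control and 361 to 4631 in diabetic libraries.

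In levels per kilobase of exon, Atp1b2 was the highest of the 5 genes and Atp2b2 the lowest. Atp1b2 had 5426 ± 953 normalized counts per kilobase (SD, n = 30) in control and 5001 ± 718 (n = 28) in diabetic retinas, and ranked 32 of 18334 genes with a known length. Kcnv2 had 1873 ± 138 in control and 1652 ± 163 in diabetic retinas, at rank 130. Atp1b1 followed with 1375 ± 106 and 1392 ± 134, at rank 180. Both calcium pumps were lower, with 473 ± 34.7 and 464 ± 33.2 for Atp2b1 and 293 ± 24.0 and 294 ± 24.0 for Atp2b2. In control retinas, neighbours in this order differed by more than the sum of their SDs, and in diabetic retinas all did except Kcnv2 and Atp1b1. A gene's length here is that of all its annotated exons, so transcripts that use fewer exons would have higher levels.

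**Figure D1:**
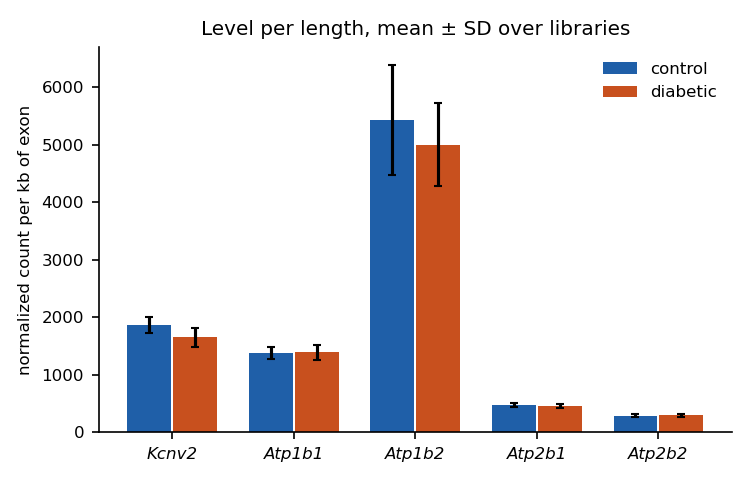
Bars give the mean level of each gene in normalized counts per kilobase of exon over the 30 control (blue) and 28 diabetic (orange) libraries, and error bars the SD. Atp1b2 stands highest at 5426 in control and 5001 in diabetic retinas, and Atp2b2 lowest at 293 and 294.

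The genes lie on separate chromosomes of the GRCm38 build. In the Gencode M21 annotation, Kcnv2 (ENSMUSG00000047298) is on the plus strand of chromosome 19 from 27322588 to 27337179. Atp1b1 (ENSMUSG00000026576) is on the minus strand of chromosome 1 from 164437109 to 164458355, and its exons share 575 bases with exons of Nme7 on the opposite strand. Whether the reads were counted by strand is not given in the sources used here, so reads of Atp1b1 in those bases may belong to Nme7. Atp1b2 (ENSMUSG00000041329) is on the minus strand of chromosome 11 from 69599736 to 69605942. Atp2b1 (ENSMUSG00000019943) is on the plus strand of chromosome 10 from 98914406 to 99026143, and Atp2b2 (ENSMUSG00000030302) on the minus strand of chromosome 6 from 113743831 to 114042613. Atp2b2 overlaps 3 genes of other types without sharing exonic bases with them.

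The first comparison asked whether the level of these genes differed between diabetic and control retinas independent of the time of day. Kcnv2 was lower in diabetic retinas, at 8436 ± 830 normalized counts (SD, n = 28) against 9566 ± 706 (n = 30) in control retinas. The log2 fold change was -0.18 with a 95% interval of -0.25 to -0.12, a fall of 11.8%, and the adjusted p-value of edgeR's quasi-likelihood test over 19120 genes was 0.000372. Of the 28 diabetic libraries, 26 lay below the control median and 9 below the lowest control library. Such counts were not taken over all genes. Kcnv2 was 1 of 5 genes to pass the test, where 3.19% of all genes did and 1.46% did so with a lower level in diabetic retinas. With Atp1b2, 2 of 5 had an unadjusted p-value under 0.05, as did 16% of all genes. In RNA from whole retinas, fewer cells of a type and less RNA per cell cannot be told apart.

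Kcnv2 was lower on average in diabetic retinas at each of the 6 time points, as were 5.98% of all genes. At ZT1, the control libraries had 9690, 9885, 10431, 10542 and 10554 normalized counts of Kcnv2 and the diabetic libraries 8644, 8693, 8709, 9669 and 10116. At ZT5, the control libraries had 7935, 9335, 9568, 9734, 9764 and 9847, and the diabetic libraries 7236, 8285, 9145, 9400 and 9562. At both times every diabetic library was below the control median, with 4 of 5 diabetic libraries below every control library at ZT1 and 1 of 5 at ZT5. At ZT9, the control libraries had 8646, 8809, 9602, 10039 and 10740, and the diabetic libraries 7674, 7910, 8257, 8434 and 9570. At ZT13, the control libraries had 8291, 8362, 9024, 9589 and 9625, and the diabetic libraries 6918, 7508, 8328 and 8358. At ZT9, 4 of 5 diabetic libraries lay below every control library, and at ZT13, 2 of 4 did. At ZT17, the control libraries had 9154, 9384, 9467, 10384 and 10557, and the diabetic libraries 7464, 7694, 8458 and 9406. At ZT21, the control libraries had 8885, 9629, 9755 and 9765, and the diabetic libraries 7523, 7536, 8292, 8321 and 9099. At each of these night times, a single diabetic library reached into the control range. Thus the groups overlapped at every time point, and over all genes the share with every diabetic library below every control library was 0.476%, 0.69%, 0.434%, 0.439%, 1.05% and 1.06% from ZT1 to ZT21. No share of all genes was counted for partial separation. When single libraries were dropped, the control library rich in lens RNA among them, Kcnv2 passed in 58 of 58 such fits over all time points, with adjusted p-values of 0.000107 to 0.000738.

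With 4 to 6 libraries per group, none of the 30 tests of a gene at a time point passed in edgeR after adjustment or in DESeq2, and 5 had an unadjusted p-value under 0.05 with either tool, all of them for Kcnv2. Over all genes, 0.0209% passed at ZT1 and at ZT5, 0.00523% at ZT9, 0.251% at ZT17, and 0% at ZT13 and ZT21, while 5.77%, 6.34%, 4.53%, 4.38%, 9.34% and 4.96% had an unadjusted p-value under 0.05 from ZT1 to ZT21. The log2 fold change of Kcnv2 was -0.15, -0.10, -0.20, -0.20, -0.25 and -0.23 at the 6 times in turn, with standard errors of 0.070 to 0.078. The lowest of its adjusted p-values in edgeR was 0.171, at ZT17. The 95% interval at ZT5 ran from -0.24 to 0.04 and overlapped those of the other times, and whether the difference changed with time was tested only as a difference in rhythm.

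**Figure D2:**
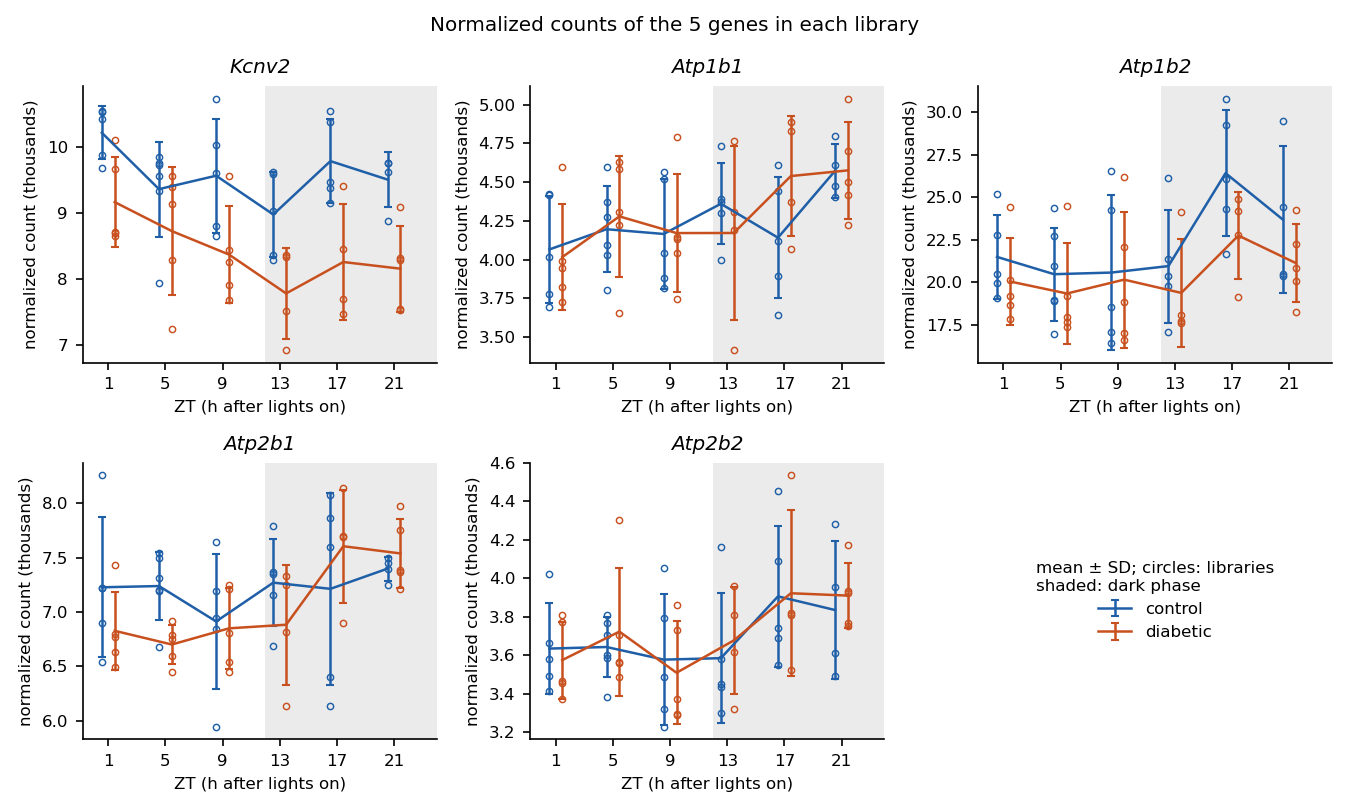
Circles give the normalized count of each library, in units of 1000, against ZT in hours for the 5 genes, and lines the mean ± SD of the control (blue) and diabetic (orange) libraries, with the dark phase shaded and axes that do not start at 0. The diabetic mean of Kcnv2 is below the control mean at all 6 time points, while those of Atp1b1 and Atp2b2 cross.

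Most markers of rods and cones did not pass the test between genotypes, but 1 of 7 rod and 2 of 6 cone markers did, all lower. Over all genes, 3.19% passed, and 1.46% passed with a lower level in diabetic retinas. All 7 rod markers had a lower mean there, 1 of them passing the test, with a median log2 fold change of -0.09, and the same held for 6 of 6 cone markers with 2 passing and a median of -0.10, and for 6 of 6 bipolar cell markers with none passing and a median of -0.09. Those that passed were Rom1, a protein of rod and cone outer segment discs, at -0.14 (adjusted p = 0.0263), Gnat2, the cone transducin subunit, at -0.12 (adjusted p = 0.00705), and Pde6h, a cone phosphodiesterase subunit, at -0.14 (adjusted p = 0.00155). Per 1000 counts of the rod markers, the control libraries had 15.1 ± 1.49 counts of Kcnv2 and the diabetic libraries 14.2 ± 1.51. When the libraries were scaled to the rod markers, which was chosen after seeing the data, the log2 fold change of Kcnv2 was -0.09 in place of -0.18 and its adjusted p-value was 0.0184. Under that scaling, Atp1b1 was higher in diabetic retinas by 0.10 on the log2 scale (adjusted p = 0.0224) and Atp2b2 by 0.10 (adjusted p = 0.0172), neither of which passed with the usual scaling, while 26% of all genes passed as higher and 0.544% as lower. Atp2b1 turned from -0.03 to 0.06 without passing, and Atp1b2 was at -0.02 (adjusted p = 0.781) in place of -0.12. The same scaling moved the median log2 fold change of all genes from 0.00 to 0.09, which is about the size of these shifts. The part of photoreceptor number in these values was not tested. Medians of about the same size were found for markers of microglia (-0.10, with 5 of 5 lower), pigment epithelium (-0.11, with 5 of 6 lower) and endothelium (-0.10, with 3 of 5 lower). Of the amacrine cell markers, 4 of 6 had a lower mean, with a median of -0.02, and the only one to pass, Chat, was higher in diabetic retinas. Cx3cr1 of microglia and Cryaa of the lens were lower, while no marker of horizontal, ganglion, Muller glia, pigment epithelium or endothelial cells passed, and no blood marker was high enough to be tested.

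Atp1b2 also had a lower mean in diabetic retinas at all 6 time points, but the difference did not pass. It had 22166 ± 3892 normalized counts (SD, n = 30) in control and 20429 ± 2934 (n = 28) in diabetic retinas, and 18 of 28 diabetic libraries were below the control median, none of them below the lowest control library. The log2 fold change was -0.12 with a 95% interval of -0.23 to -0.0028, with an unadjusted p-value of 0.0448 and an adjusted p-value of 0.297 by edgeR. It passed in 2 of 76 alternative fits, both with the replicate block. The spread between libraries was larger for this gene than for the other members, at 17.6% of the mean in control libraries against 7.33% to 8.20%.

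The remaining 3 genes had log2 fold changes near 0. Atp1b1 had 4238 ± 328 normalized counts (SD, n = 30) in control retinas against 4287 ± 414 (n = 28) in the diabetic ones, with a log2 fold change of 0.02 and a 95% interval of -0.05 to 0.08. Atp2b1 had 7205 ± 528 against 7055 ± 506, with a log2 fold change of -0.03 and an interval of -0.09 to 0.03. Atp2b2 had 3690 ± 303 and 3713 ± 303, with a log2 fold change of 0.01 and an interval of -0.05 to 0.07. At single time points their intervals were wider and all held 0. Of these, Atp2b1 at ZT5 had the lowest unadjusted p-value, at 0.0723 (edgeR adjusted p = 0.849), with a log2 fold change of -0.11 and an interval of -0.24 to 0.01. There, the control libraries had 6681, 7193, 7200, 7313, 7499 and 7546 normalized counts of Atp2b1, and the diabetic libraries 6446, 6599, 6756, 6790 and 6916, so that 5 of 6 control libraries lay above every diabetic library. How many of all genes were so nearly separated was not counted, and 6.34% had an unadjusted p-value under 0.05 in edgeR at ZT5. Atp1b1 at ZT17 had a log2 fold change of 0.13 and an interval of -0.03 to 0.29.

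**Figure D3:**
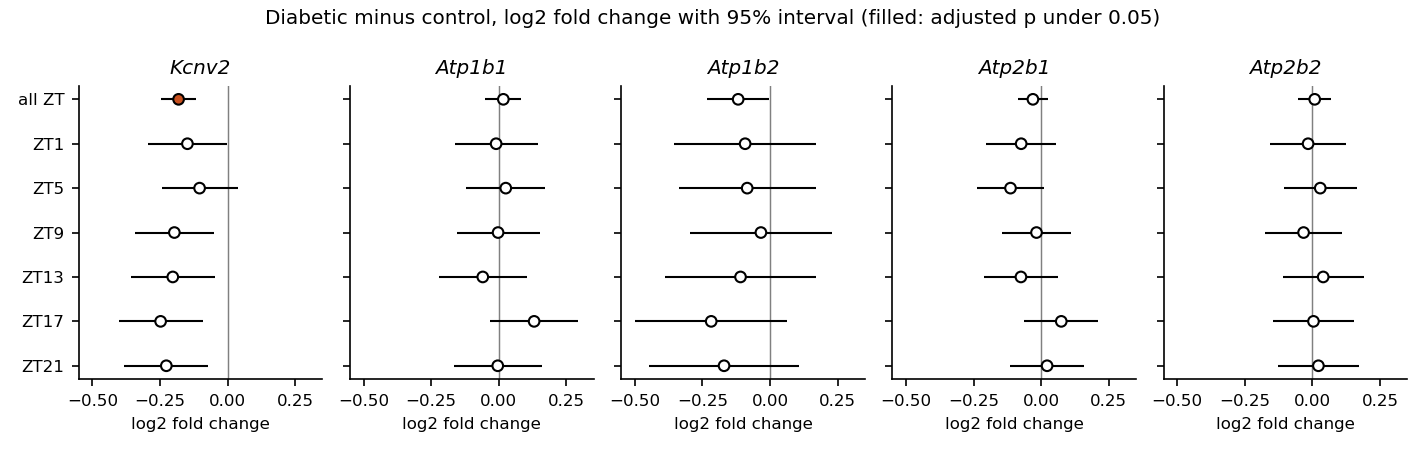
Points give the log2 fold change of diabetic against control retinas for each gene over all time points and at each ZT, and lines its 95% interval, with filled points for an adjusted p-value under 0.05. The only filled point is that of Kcnv2 over all time points, at -0.18.

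The second comparison asked which of the genes followed a 24 h rhythm in each genotype, from a cosine and sine of the time fitted to the counts. In control retinas, none of the 5 genes passed in the main edgeR fit or in DESeq2, where 11.6% of all genes passed in edgeR, and 1 gene, Atp1b2, had an unadjusted p-value under 0.05 with both tools, as did 26.2% of all genes in edgeR. In diabetic retinas, 1 of 5 passed, which was Atp2b1, where 12.8% of all genes passed, and with Kcnv2 2 of 5 were under 0.05 unadjusted, against 26.9% of all genes. The difference in rhythm between the genotypes passed for 0 of 5 genes with either tool, and 0 of 5 had an unadjusted p-value under 0.05, where 0% of all genes passed and 3.66% were under 0.05 unadjusted. A rhythm called in 1 genotype and not in the other was thus not shown to differ between them.

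Atp2b1 in diabetic retinas was highest in the night. At ZT1, the diabetic libraries had 6494, 6637, 6775, 6800 and 7431 normalized counts, at ZT5 they had 6446, 6599, 6756, 6790 and 6916, and at ZT9 they had 6444, 6538, 6809, 7213 and 7245. At ZT13, they had 6132, 6816, 7249 and 7335, at ZT17 they had 6895, 7686, 7697 and 8140, and at ZT21 they had 7207, 7363, 7388, 7758 and 7975. At ZT21, every library was above every library of ZT5, and at ZT17, 3 of 4 were. Such separation between time points was not counted over all genes, of which 12.8% were called rhythmic in diabetic retinas. The fitted amplitude of Atp2b1 was 0.09 on the log2 scale, a fold of 1.13 from trough to peak, with the peak at ZT18.3 (edgeR adjusted p = 0.0324). In control retinas, the fitted amplitude was 0.03 (adjusted p = 0.825), and the group means stayed between 6913 and 7399. The test of the difference in rhythm had a p-value of 0.158 before adjustment and an adjusted p-value of 1.00 in edgeR. The call in diabetic retinas rested on few libraries, since it was lost without replicates 1, 4 or 5 of ZT17, replicates 1 or 2 of ZT21, or replicate 3 of ZT5, with adjusted p-values up to 0.0775, and without all libraries of ZT1, ZT5, ZT17 or ZT21, up to 0.249.

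The start of Atp2b1 is shown because this gene was called rhythmic in diabetic retinas and held 1 of the motifs searched, which the other promoters did not. RefSeq promoters, from 250 bases before to 50 bases after the start site, were found for 3 of the 5 genes, which were Atp1b1, Atp2b1 and Atp2b2. Both strands were searched for the E-box CACGTG, which clock proteins can bind, for TAATCC, a motif of photoreceptor homeobox factors, and for AGGTCA, a motif of nuclear receptors. Another promoter of Atp2b1, at chr10:98914902-98915201, held none of these motifs. At chr10:98914522-98914671, on the plus strand of GRCm38.p6, 120 bases before and 30 bases after an Atp2b1 start site read as follows, with the E-box in capitals.
Atp2b1: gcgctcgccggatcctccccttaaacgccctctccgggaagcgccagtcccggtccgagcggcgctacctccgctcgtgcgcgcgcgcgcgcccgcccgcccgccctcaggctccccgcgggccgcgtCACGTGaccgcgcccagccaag
The motif began at base 9 of the transcript and reads alike on both strands. Of 32851 promoters of the same length, 7.15% held this motif, 7.06% held TAATCC and 16.3% held AGGTCA. A match of letters is no evidence that a factor binds there.

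Atp1b2 in control retinas was highest at ZT17, in the middle of the night. At ZT5, the control libraries had 16956, 18929, 18947, 20962, 22716 and 24371 normalized counts, and at ZT17 they had 21660, 24304, 26096, 29256 and 30817. All 5 libraries of ZT17 were above the median of ZT5, and 3 were above its highest library. The fold of ZT17 over ZT5 was 0.36 on the log2 scale (SE 0.13, edgeR adjusted p = 0.0422), where 15.7% of all genes passed, including 7.6% that were higher at ZT17, and 31.3% were under 0.05 unadjusted. It was 1 of 5 genes to pass that comparison, and in diabetic retinas none of 5 passed with edgeR or DESeq2, where 7.76% of all genes passed in edgeR, and 1 gene, Atp2b1, had an unadjusted p-value under 0.05 with both tools, as did 21.8% of all genes in edgeR. In diabetic retinas, Atp1b2 had 17359, 17663, 17974, 19209 and 24509 at ZT5 and 19135, 22769, 24202 and 24909 at ZT17, a log2 fold of 0.23 (SE 0.14, edgeR adjusted p = 0.346). The difference between these folds was not tested alone. Atp2b1 in diabetic retinas had a log2 fold of 0.17 (SE 0.07, edgeR adjusted p = 0.108). With GC and length correction it passed, but so did 2216 of all genes in diabetic retinas, against 1483 in the main fit.

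The call of Atp1b2 was lost without any one of 7 control libraries, which were replicates 1, 2, 3 and 6 of ZT5 and replicates 1, 3 and 4 of ZT17, with adjusted p-values of 0.0531 to 0.148. The cosine fit of Atp1b2 gave an amplitude of 0.16 on the log2 scale in control retinas with a peak at ZT18.7 (edgeR adjusted p = 0.0914). It passed in 5 of 45 alternative fits, among them GC and length correction (0.0456), the replicate block and leaving out control replicate 4 of ZT9 (0.0268). More of all genes passed as well, 3253 with that correction and 2500 with the block, against 2220 in the main fit. In diabetic retinas, the amplitude was 0.08 with a peak at ZT18.2 (adjusted p = 0.490). A rank test of the JTK_CYCLE kind was also run with no adjustment over genes. Its minimum fold was taken between the highest and the lowest single library, and not on the predicted fold as in the study. It called Atp1b2 in control retinas, with an unadjusted p-value of 0.0406 by permutation, as it did 21.8% of all genes. It also called Atp2b1 in diabetic retinas (permutation p = 0.00479), as it did 23.9% of all genes. From the trough to the peak of the cosine, the fitted fold was 1.26 for Atp1b2 in control and 1.13 for Atp2b1 in diabetic retinas.

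Kcnv2, Atp1b1 and Atp2b2 passed no test over time in the main edgeR fits. Kcnv2 in diabetic retinas had its highest mean at ZT1, at 9166 ± 682 normalized counts (SD, n = 5), and its lowest at ZT13, at 7778 ± 695 (n = 4), with a fitted amplitude of 0.09 and a peak at ZT2.6 (edgeR adjusted p = 0.149). In control retinas its means were also highest at ZT1, at 10220 ± 404 (n = 5), and lowest at ZT13, at 8978 ± 641 (n = 5), with an amplitude of 0.05 and a peak at ZT23.7 (adjusted p = 0.393). Atp1b1 and Atp2b2 had amplitudes of 0.03 to 0.06 in both genotypes, with fitted peaks in the dark phase. For a change of any shape over time, 0 of 5 genes passed with edgeR or DESeq2 in either genotype, and by both tools 1 gene in control (Atp1b2) and 2 genes in diabetic retinas (Atp2b1 and Kcnv2) had an unadjusted p-value under 0.05. Of all genes, 9.48% and 10.7% passed in edgeR, and 22.1% and 23% were under 0.05 unadjusted. With the replicate block Atp1b2 passed in control retinas, where 2508 of all genes passed, against 1812 in the main fit.

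**Figure D4:**
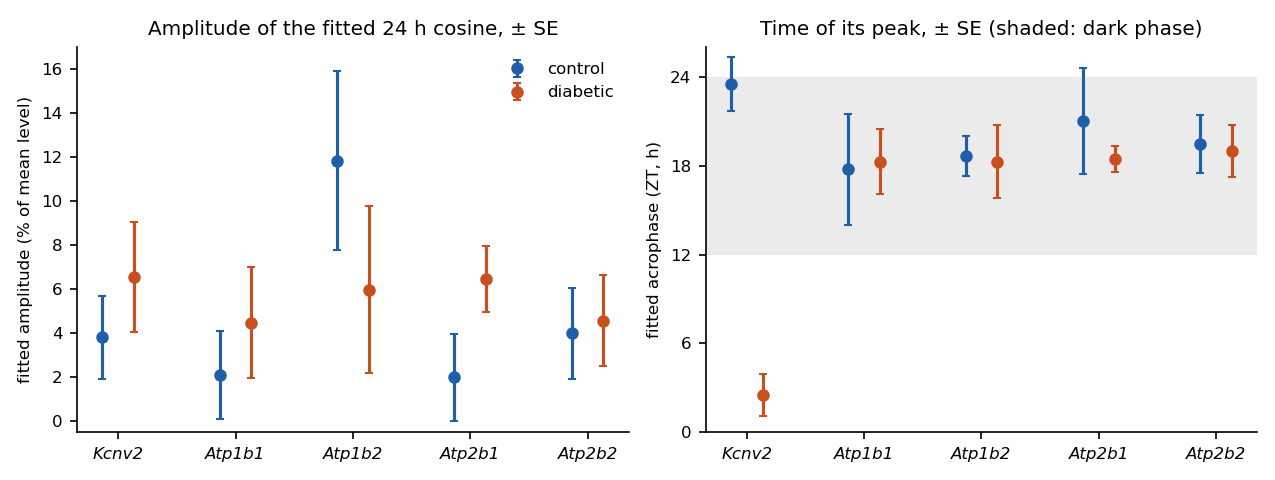
Points give, for control (blue) and diabetic (orange) retinas, the amplitude of a 24 h cosine fitted to the normalized counts in percent of the mean level (left) and the time of its peak in ZT hours (right), with error bars for the SE and the dark phase shaded. The amplitude of Atp2b1 is 6.48% in diabetic and 2.00% in control retinas, and every fitted peak but that of Kcnv2 in diabetic retinas lies in the dark phase.

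The values of Atp1b2 and Atp2b2 moved together across libraries. Over the 58 libraries their log2 normalized counts had a Pearson's r of 0.75 and a Spearman's rho of 0.71, given as a description, since libraries share groups, depth and base composition. The first principal component of all expressed genes held 16.7% of the variance, and its score had an r, in size, of 0.78 with Atp1b2 and 0.80 with Atp2b2, against 0.42 with Atp2b1, 0.06 with Atp1b1 and 0.02 with Kcnv2. Control replicates 1 and 3 of ZT17, which had the most Atp1b2 at that time, had the highest scores of the control libraries, at 49.4 and 58.5, against -2.28 to 6.04 for the other libraries of their group. The call of Atp1b2 at ZT17 against ZT5 was lost without either of them, and with GC and length correction the log2 fold was 0.29 (edgeR adjusted p = 0.0483). Across 18334 genes, which are not independent, the weight in this component followed the GC content of the longest transcript with an r of 0.71 in size. The longest transcripts of Atp1b2 and Atp2b2 had the highest GC contents of the 5 genes, at 52.4% and 52.2% against 42.6% for Atp2b1. The library with replicate number 4 was the highest of its group for Atp1b2 in 9 of 12 groups and for Atp2b2 in 8 of 12, and never the lowest for either, while for Kcnv2 it was the lowest in 5 and never the highest.

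Without all 12 libraries numbered 4, left out after seeing the data, the log2 fold change of Kcnv2 between genotypes was -0.17 (edgeR adjusted p = 0.0112), that of Atp1b2 between ZT17 and ZT5 in control retinas was 0.43 (adjusted p = 0.00374), and the rhythm of Atp2b1 in diabetic retinas no longer passed (adjusted p = 0.137). With the trends of GC content and length removed, Kcnv2 stood at -0.18 (adjusted p = 9.33e-05), Atp1b2 at 0.29 (adjusted p = 0.0483) and the amplitude of Atp2b1 in diabetic retinas at 0.08 (adjusted p = 0.00624). The part of base composition in the spread of Atp1b2 and Atp2b2 was not tested beyond this.

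**Figure D5:**
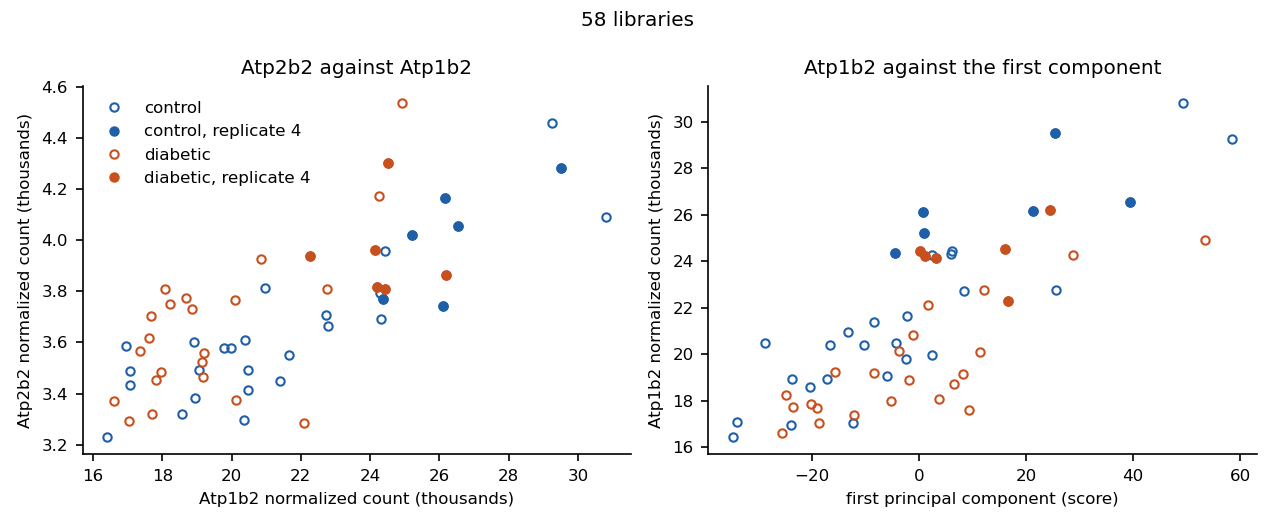
Circles are the 58 libraries, control (blue) and diabetic (orange), with filled circles for replicate number 4; the left plot gives the normalized counts of Atp2b2 against those of Atp1b2 in units of 1000, the right plot Atp1b2 against the score of the first principal component, with axes that do not start at 0. Both relations rise, with r of 0.75 and 0.78 on log2 counts, and the filled circles lie at 22278 normalized counts of Atp1b2 or above.

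Among 11232 genes with a mean of at least 100 normalized counts, the genes whose log2 levels over the 58 libraries were most like those of each member were named, as a description. For Kcnv2 they were Tnfaip3, an inhibitor of NF-kB signaling, Rd3, a photoreceptor protein that holds back guanylate cyclase, and Zfp365, with r of 0.86, 0.81 and 0.80, and of 0.77, 0.77 and 0.69 once the group means were removed. For Atp1b2 they were R3hdm2, Nono and Zfp385a, with r of 0.95, 0.95 and 0.93. For Atp2b2 they were Syn1, a protein of synaptic vesicles, Tox2 and Map1a, a microtubule protein of neurons, with r of 0.93, 0.92 and 0.92. For Atp1b1 they were 2510009E07Rik, Prkar1a and Slc17a6, a glutamate transporter that marks ganglion cells, with r of 0.89, 0.88 and 0.83. For Atp2b1 they were Akap11, Bmpr2 and Hspa4l, with r of 0.87, 0.86 and 0.84.

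Other genes of the same pathways were read from lists chosen with earlier results of these data known. Of the sodium pump genes, 11 of 15 passed the filter on low counts, and besides the 2 members 1 of 9 passed the test between genotypes, as did 3.19% of all genes, and 3 of 9 had an unadjusted p-value under 0.05, as did 16%. These 9 genes had a median log2 fold change of -0.02 against 0.00 for all genes. Atp1b3, the remaining beta subunit expressed here, had a log2 fold change of 0.11 that did not pass (adjusted p = 0.177). Rhythms passed for 0 of these 9 genes in control retinas with edgeR or DESeq2, with 2 under an unadjusted p-value of 0.05 by either tool. In diabetic retinas, 1 of 9 passed, with a peak in the light phase, and 3 of 9 were under 0.05 unadjusted in edgeR. Of all genes, 11.6% in control and 12.8% in diabetic retinas passed in edgeR, and 26.2% and 26.9% were under 0.05 unadjusted.

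All 17 genes of calcium pumps and exchangers passed the filter. Between genotypes, 1 of the 15 that are not members passed, Atp2a3, a calcium pump of the endoplasmic reticulum, with a log2 fold change of -0.19 in diabetic retinas (edgeR adjusted p = 0.0169). Over all genes 3.19% passed, and 6 of the 15 had an unadjusted p-value under 0.05 with either tool, against 16% of all genes. The median of the 15 was -0.02. The other plasma membrane calcium pumps did not pass, with log2 fold changes of -0.08 for Atp2b3 (adjusted p = 0.235) and 0.09 for Atp2b4 (adjusted p = 0.227). Rhythms passed for 4 of 15 in control and 5 of 15 in diabetic retinas, and all of these peaked in the dark phase, as did Atp2b1. In control retinas they were Slc8a3, a sodium-calcium exchanger, with a peak at ZT20.0 (adjusted p = 0.000382), Atp2a2, Bsg and Slc24a4. In diabetic retinas they were Atp2b4, with a peak at ZT20.5 (adjusted p = 0.000977), Slc8a3, Slc24a4, Slc8a1 and Bsg. Over all genes, 5.71% in control and 6.4% in diabetic retinas passed with a peak in the dark phase. In control retinas, Atp2b4 had an adjusted p-value of 0.231, and the difference in rhythm passed for no gene of the 3 lists in edgeR or DESeq2, with 1 under an unadjusted p-value of 0.05 by either tool.

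All 22 genes of potassium and HCN channels passed the filter, and besides Kcnv2 none of 21 passed the test between genotypes in edgeR or DESeq2, with 1 under an unadjusted p-value of 0.05 by either tool, where 3.19% of all genes passed and 16% were under 0.05 unadjusted in edgeR. The median of the 21 was 0.01. Rhythms passed for 3 of 21 in control and 4 of 21 in diabetic retinas in edgeR, against 11.6% and 12.8% of all genes. In DESeq2 they passed for 4 of 21 in control retinas, where 2636 of 18740 genes passed. In diabetic retinas they passed there for 7 of the 20 with an adjusted p-value, where 2880 of 18377 genes passed. Unadjusted p-values under 0.05 in edgeR were found for 8 of 21 in control and 14 of 21 in diabetic retinas, against 26.2% and 26.9% of all genes. Among them were Kcnj14, an inward rectifier, with a peak at ZT19.2 (adjusted p = 0.00230), and Hcn4, a channel opened by hyperpolarization, with a peak at ZT18.8 (adjusted p = 0.0203), both in control retinas. All 3 in control retinas peaked in the dark phase, as did 3 of 4 in diabetic retinas, while 1 of 4 peaked in the light phase. In diabetic retinas the genes peaking in the dark included Kcna2, with a peak at ZT19.5 (adjusted p = 0.0217), and Kcnh5, with a peak at ZT18.2 (adjusted p = 0.0248). At ZT17, 7 of 21 differed from ZT5 in control retinas, 6 of them higher, where 15.7% of all genes passed and 7.6% were higher. Among them was Hcn3 by 0.39 on the log2 scale (adjusted p = 0.00747). In diabetic retinas, 2 of 21 passed, where 7.76% of all genes did, among them Kcnj10, the inward rectifier of Muller glia, by 0.28 (adjusted p = 0.0423).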

How the data were processed

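Total RNA of single retinas was sequenced after ribosomal RNA depletion. The deposited counts are raw read counts per gene and library, which the authors made with STAR 2.7.4a and HTSeq 0.11.1 on GRCm38.p5, with DESeq2 1.26.0 also in the submitters' processing notes. Every count column was matched to a sample by its label, and groups were set from genotype and time labels. The strand setting of the counting is not given in the sources used here.

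Genes with a median above 4 normalized counts over the 58 libraries were kept (19120 of 52459). The main tests were edgeR 4.0.16 quasi-likelihood tests with TMM scaling and Benjamini-Hochberg adjustment over all kept genes, called at 0.05. One fit held genotype over all libraries, one fit held the 12 groups, and rhythm was tested with a 24 h cosine and sine in each genotype, with their interaction with genotype for the difference. Printed values are counts divided by DESeq2 1.42.0 size factors. The scripts ran in R 4.3.3 and Python 3.11.15 and were tested on simulated data. Length over all exons and GC content of the longest transcript came from Gencode M21, in which 47976 symbols matched a single gene. Library totals were 7773117 to 22147398 counts. In 113 pairs of replicates, the chi-square per degree of freedom was at least 2.22, so no library was counted as a repeat of another.

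The alternatives were DESeq2, its size factors, other filters, the older quasi-likelihood fit, GC and length correction, a replicate block, time as a factor, separate fits, a rank test of the JTK_CYCLE kind, and leaving out each library or time point. Scaling to rod markers, the block with time, and leaving out all libraries numbered 4 were chosen after seeing the data. The genes and lists were chosen with earlier results of these data known. The genes named are the members, Nme7, which overlaps a member, the cell type markers that passed and the 3 genes most like each member. From the fixed lists, genes were named only if they had passed, besides Atp1b3, Atp2b3 and Atp2b4 as the remaining family genes. A few genes of the lists are counted in them without being named or reported here.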

Additional observations from a re-analysis of the deposited data

Results flagged for a closer look

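In 5 of the 60 groups of 4 to 6 libraries tested, over the 5 genes, the highest or lowest library stood apart from the others by Dixon's criterion, where chance alone flags about 1 in 20 groups. For Kcnv2, these were control replicate 1 at ZT5 with 7935 normalized counts and control replicate 4 at ZT21 with 8885, both the lowest of their group. For Atp1b2, they were diabetic replicate 4 at ZT5 with 24509 and diabetic replicate 4 at ZT13 with 24129, both the highest of their group. For Atp2b2, it was diabetic replicate 4 at ZT5 with 4302, the highest of its group.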

How the results depend on the processing

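The lower level of Kcnv2 in diabetic retinas passed under every alternative run, with a log2 fold change of -0.20 to -0.09. Without a library, the calls ranged from 0 to 1 in the rhythm of either genotype and at ZT17 against ZT5 in control retinas. Replicate numbers were not taken as pairs, since no label says what they share and 21 of 26 pairs of a number and time, not all, had a correlation over 0.1 (-0.52 to 0.84). That 15 correlated best with their own number is a hint of pairing. With the replicate block, Atp1b2 gave 1 call in the rhythm of control retinas (adjusted p = 0.0111) and 1 for any change over time there, and with the block and GC and length correction 1 each as well, with 2 calls between genotypes (Atp1b2, adjusted p = 0.0177), 1 at a single time point (Kcnv2 at ZT17, 0.0497), 2 in the rhythm of diabetic retinas (Kcnv2, 0.0312), 1 for any change over time there and 1 at ZT17 against ZT5 there (Atp2b1, 0.00097). The block with time as a factor gave 2 calls between genotypes (Atp1b2, 0.0228). GC and length correction alone gave 1 call in the rhythm of control retinas (Atp1b2, 0.0456), 1 for any change over time in diabetic retinas and 1 at ZT17 against ZT5 there (Atp2b1, 0.000884). The rank test gave 1 call in control retinas, and scaling to rod markers gave 3 between genotypes. Without all libraries numbered 4, there was 1 call in the rhythm of control retinas (0.0476), 1 for any change over time there and 0 in the rhythm of diabetic retinas, where there were also 0 without ZT1, ZT5, ZT17 or ZT21.

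Directions turned only for values that passed no test. Between genotypes these were Atp1b1 at -0.0052 without ZT17, Atp2b1 at 0.060 scaled to rod markers, and Atp2b2 at -0.0038 with GC and length correction, -0.0030 with the block as well, -0.00084 without ZT21 and -0.0027 to 0.019 without a library. Atp1b2 at ZT9 ranged from -0.14 to 0.074 without a library. Single libraries also turned Atp1b1 at every time but ZT17 (within -0.13 to 0.077), Atp2b1 at ZT9 (-0.067 to 0.021) and Atp2b2 at every time but ZT13 (within -0.071 to 0.079), and other alternatives turned Atp1b1 at ZT1, ZT9 and ZT21 and Atp2b2 at ZT5, ZT17 and ZT21 (within -0.019 to 0.032). At ZT17 against ZT5 in control retinas, these were Atp2b1 at 0.078 with GC and length correction and 0.071 with the block as well, Atp2b2 at -0.021 and -0.022, and without a library Atp1b1 at -0.068 to 0.015 and Atp2b1 at -0.056 to 0.042. In diabetic retinas, they were Atp2b2 at -0.023 and -0.026, and -0.0083 to 0.12 without a library. The fitted peak of Atp1b1 in control retinas turned with an amplitude of 0.037 without ZT21. The causes were not tested.

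Over all genes, 610 passed between genotypes, against 980 with GC and length correction, 1007 with the block as well, 978 with time as a factor, 981 with the block and time, 5083 scaled to rod markers, 184 without all libraries numbered 4 and 237 to 389 without ZT1, ZT5, ZT9, ZT17 or ZT21. At ZT17, 48 genes passed between genotypes, against 3 to 30 without diabetic replicates 4 or 5 or control replicates 1 or 3, 123 without diabetic replicate 1, and 0 (separate fit) to 293 (block with GC and length correction) otherwise. At each other time, 0 to 4 genes passed, and 0 to 36 under the alternatives. Rhythms passed for 2220 genes in control and 2441 in diabetic retinas, against 3484 and 3816 with the block and GC and length correction, 977 and 628 in control retinas without ZT5 and ZT17, and 1361, 1083 and 1184 in diabetic retinas without ZT9, ZT17 and ZT21. Any change over time passed for 1812 and 2055, against 3268 and 4038 with the block and GC and length correction, and 3292 in diabetic retinas with the correction alone. At ZT17 against ZT5, 3011 genes passed in control retinas, against 1410 to 1879 without control replicates 1 or 3 of ZT17 or 1 of ZT5, and 1483 in diabetic retinas, against 2478 with the block and correction, 2330 without libraries numbered 4, and 917 and 936 without diabetic replicates 3 and 5 of ZT17.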
